A study of Mus musculus with 12 samples.

Results

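Of the 12 left-ventricle RNA libraries of this study 6 form its tamoxifen-inducible experiment and are described here across all genes. They are the 3 libraries labelled iCKO and the 3 labelled CTR2, chosen by their titles in the count table that holds only these groups. The iCKO mice were Ddx5flox/flox with Myh6MerCreMer, the CTR2 mice were Ddx5flox/flox without Cre, and all were male. Both groups were given tamoxifen intraperitoneally at 20 mg/kg/day for 5 days, and ventricles were collected 7 days later by the design text, with no word on the injection that starts this count. The labels call the mice age-matched and give no age for these groups. The other 6 libraries (mCKO and CTR1) come from a constitutive Myh6 Cre model taken at 8 weeks, and serve below only for comparison.

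Ddx5, also called p68, is a DEAD-box RNA helicase that remodels RNA and acts as a cofactor in transcription, in pre-mRNA splicing and in the maturation of ribosomal and small RNAs. MerCreMer is a Cre recombinase held between hormone-binding domains of the oestrogen receptor, so that it reaches the nucleus of cells that use the Myh6 promoter, the cardiomyocytes, once tamoxifen is bound. An adult ventricle runs mainly on fatty acids, holds dense mitochondria, and keeps fetal genes such as Nppa, Nppb, Acta1 and Myh7 low. When loaded or injured it is known to re-express these genes. As CTR2 mice carried no Cre, an effect of MerCreMer activated by tamoxifen cannot be told apart here from loss of Ddx5.

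Levels are CPM, counts relative to library sizes that were scaled by TMM, and every ± after a log2 fold change is a standard error. A gene is called where the adjusted p of edgeR's quasi-likelihood test (Benjamini-Hochberg over all genes) is under 0.05, and the words rose and fell are kept for called genes, with the signed log2 fold change after them. Counting is not stated to use strand, so genes whose exons overlap those of another gene are less certain. The share of overlapped exon length is given beside 15% or more, and lies between 10 and 14% for Bax, Bdh1, Fars2, Myh7, Oxct1, Pfkm and Prc1. Totals of the 6 libraries ran from 20879447 to 25871882 counts. Since no label states that replicates were separate animals, p-values measure the spread between these libraries, which may be technical. The leading principal component (79.7% of variance) separated the groups, while the next (9.4%) set iCKO replicate 3 and CTR2 replicate 2 apart from the rest. Ventricular cardiomyocyte markers were the most abundant marker list in every library, at 149258 to 162389 CPM summed in CTR2 and 74866 to 88443 CPM in iCKO. The tissue also holds fibroblasts, endothelium, macrophages and blood, and in such bulk samples fewer cells of a type and less RNA per cell cannot be told apart.

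The promoters of 6 genes are printed to show the short motifs searched below in some of the gene lists. Each runs for 250 bases up to the RefSeq transcription start (GRCm38.p6), in the direction of the gene, with capitals marking the motif. For Nppb, Ankrd1 and Acta1, genes of the fetal and stretch response, the capitals are the M-CAT core CATTCC, which reads GGAATG on the other strand, the element that TEAD factors are known to read. For Asns, a target of the stress factor ATF4, they are TGATGNAA, the C/EBP-ATF response element. For Isg15, an interferon target, they are the interferon response core, GAAA then any 2 bases then GAAA, which matches 3 times here with overlaps. For Mcm6, a replication gene, they are the E2F site TTTGGCGC. The windows are chr4:147985650-147985899 (plus strand), and on the minus strand chr19:36119845-36120094, chr8:123894776-123895025, chr6:7693210-7693459, chr4:156200819-156201068 and chr1:128359706-128359955.
Nppb: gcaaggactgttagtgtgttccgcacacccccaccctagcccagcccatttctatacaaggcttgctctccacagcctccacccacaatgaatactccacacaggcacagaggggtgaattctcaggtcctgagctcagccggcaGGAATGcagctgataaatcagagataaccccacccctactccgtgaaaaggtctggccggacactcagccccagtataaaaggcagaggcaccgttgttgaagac
Ankrd1: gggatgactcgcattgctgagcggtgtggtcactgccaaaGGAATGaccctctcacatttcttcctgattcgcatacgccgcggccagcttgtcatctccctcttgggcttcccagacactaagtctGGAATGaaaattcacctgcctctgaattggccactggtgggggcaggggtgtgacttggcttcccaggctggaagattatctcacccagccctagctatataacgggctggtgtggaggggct
Acta1: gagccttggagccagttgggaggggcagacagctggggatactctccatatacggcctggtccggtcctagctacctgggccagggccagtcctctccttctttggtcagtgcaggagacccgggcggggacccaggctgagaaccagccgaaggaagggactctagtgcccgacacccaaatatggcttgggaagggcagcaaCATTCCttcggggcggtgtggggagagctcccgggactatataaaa
Asns: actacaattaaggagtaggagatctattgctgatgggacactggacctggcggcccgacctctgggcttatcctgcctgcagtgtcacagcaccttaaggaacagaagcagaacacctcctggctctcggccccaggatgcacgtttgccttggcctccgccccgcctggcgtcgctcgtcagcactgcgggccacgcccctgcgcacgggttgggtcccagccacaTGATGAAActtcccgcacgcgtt
Isg15: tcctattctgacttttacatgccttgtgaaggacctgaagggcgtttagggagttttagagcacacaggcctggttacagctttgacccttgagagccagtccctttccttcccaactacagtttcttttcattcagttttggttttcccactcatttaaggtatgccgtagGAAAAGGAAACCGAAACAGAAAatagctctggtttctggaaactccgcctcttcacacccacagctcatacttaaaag
Mcm6: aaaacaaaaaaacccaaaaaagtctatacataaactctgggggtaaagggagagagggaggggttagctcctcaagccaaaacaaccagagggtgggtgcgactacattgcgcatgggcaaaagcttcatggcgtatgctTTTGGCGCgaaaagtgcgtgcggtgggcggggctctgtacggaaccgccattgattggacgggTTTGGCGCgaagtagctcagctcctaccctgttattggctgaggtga

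The targeted transcript was lower in every iCKO library. Ddx5 (Entrez 13207, chromosome 11, 106780355 to 106789185 in GRCm38) was measured at 566, 697 and 597 CPM in CTR2 and 216, 219 and 192 CPM in iCKO. The groups did not overlap, and the iCKO mean was 33.7% of control (log2 fold change -1.57 ± 0.15, adjusted p = 1.7e-04). An exact two-sided permutation of the 6 libraries gave p = 0.1, the smallest that 3 against 3 allows. Counts cover the whole gene and all cells of the ventricle, and the sources used here do not name the floxed exons. Esr1, the oestrogen receptor gene, was counted at 2.99, 2.31 and 1.89 CPM in CTR2 and 1095, 654 and 165 CPM in iCKO. MerCreMer carries mouse Esr1 sequence, and counts do not separate the transgene from the native gene, so that this difference checks the genotype labels. Within iCKO, Esr1 was lowest in replicate 3, as was Myh6, whose promoter drives the transgene, at 44703, 41429 and 42175 CPM in CTR2 and 23813, 17714 and 11648 CPM in iCKO (log2 fold change -1.27 ± 0.24, adjusted p = 0.0035). Ddx17, the close paralog of Ddx5, was measured at 166, 178 and 191 CPM in CTR2 and 299, 267 and 178 CPM in iCKO and was not called (log2 fold change 0.48 ± 0.2, adjusted p = 0.087). Without iCKO replicate 3, the only iCKO library inside the range of the controls, it was called (0.63, adjusted p = 0.0027).

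**Figure D1:**
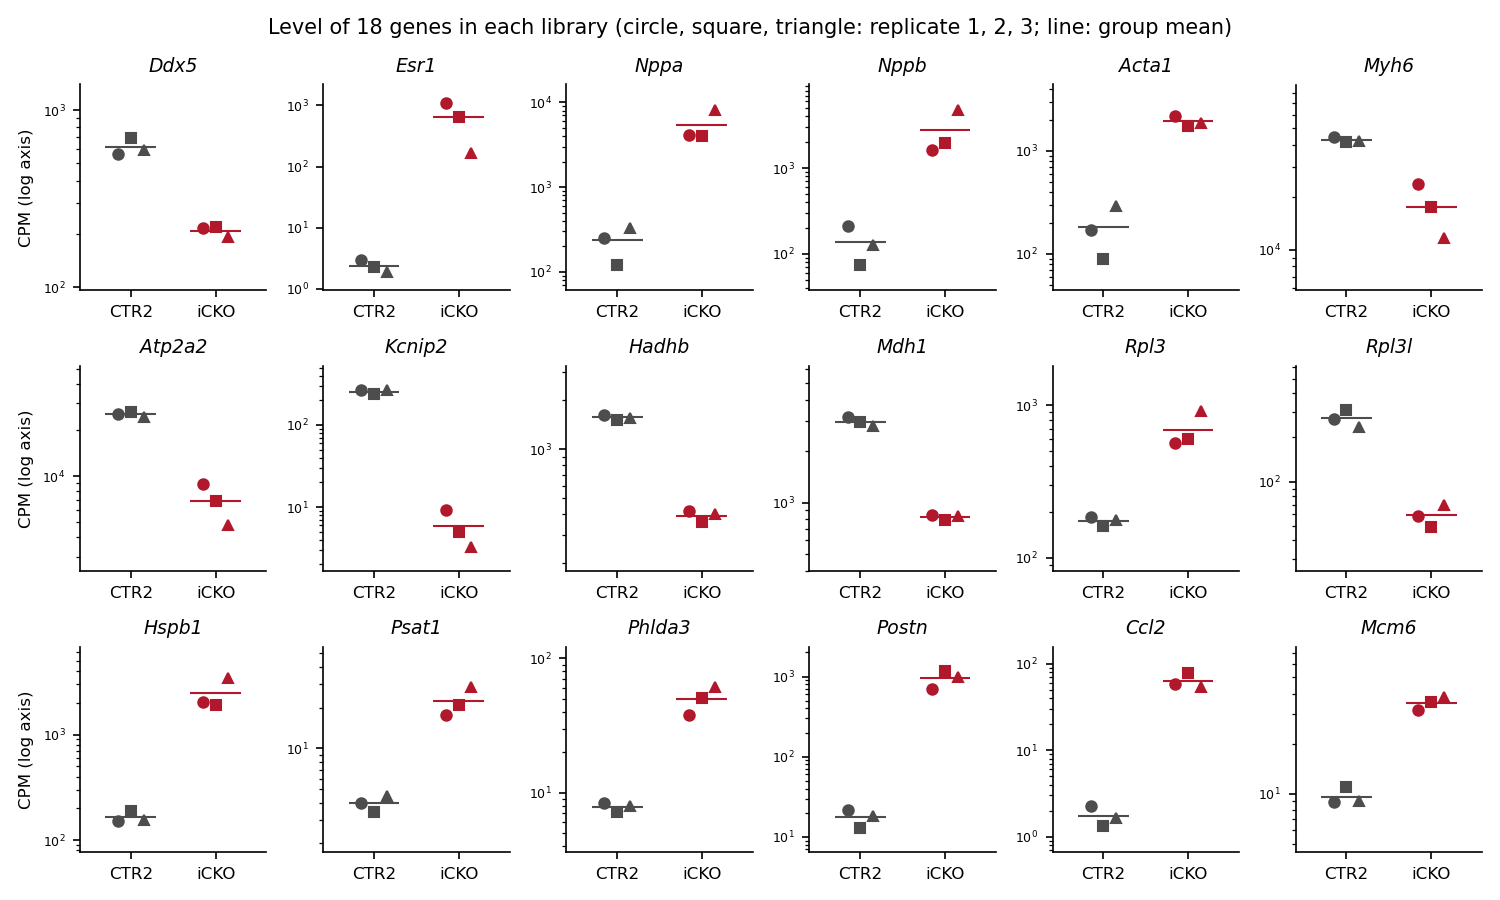
Level of 18 genes in each of the 6 libraries, in CPM on log axes that differ between panels, with a line at each group mean. In all 18 panels the 3 iCKO libraries lie wholly above or wholly below the 3 CTR2 libraries. All 18 are called genes, and such separation held for 99.1% of called and 58.9% of all tested genes.

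The difference between iCKO and CTR2 reached a large share of the transcriptome. Of 13548 genes tested, 3420 rose (25.2%) and 2648 fell (19.5%). A 2-fold change was passed by 2026 genes upward and 1321 downward, and an 8-fold change by 307 and 84. Libraries of iCKO and CTR2 did not overlap for 7983 tested genes (58.9%) and for 99.1% of called ones. The split moved with the scaling, as library sizes without TMM factors gave 4592 higher and 1832 lower genes (71.5% higher against 56.4%) and shifted the median log2 fold change of all genes from 0.03 to 0.24. The 10 most abundant genes took 13.4 to 14.1% of counts in CTR2 and 9.3 to 10.7% in iCKO. The filter on low counts left out at most 2 members of any functional list, and members near 0 in CTR2 could pass it only through iCKO. Gene lists are read below against the shares of all genes that rose and fell, and their medians against 0.03. The plot of list calls sets every functional list against those shares.

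**Figure D2:**
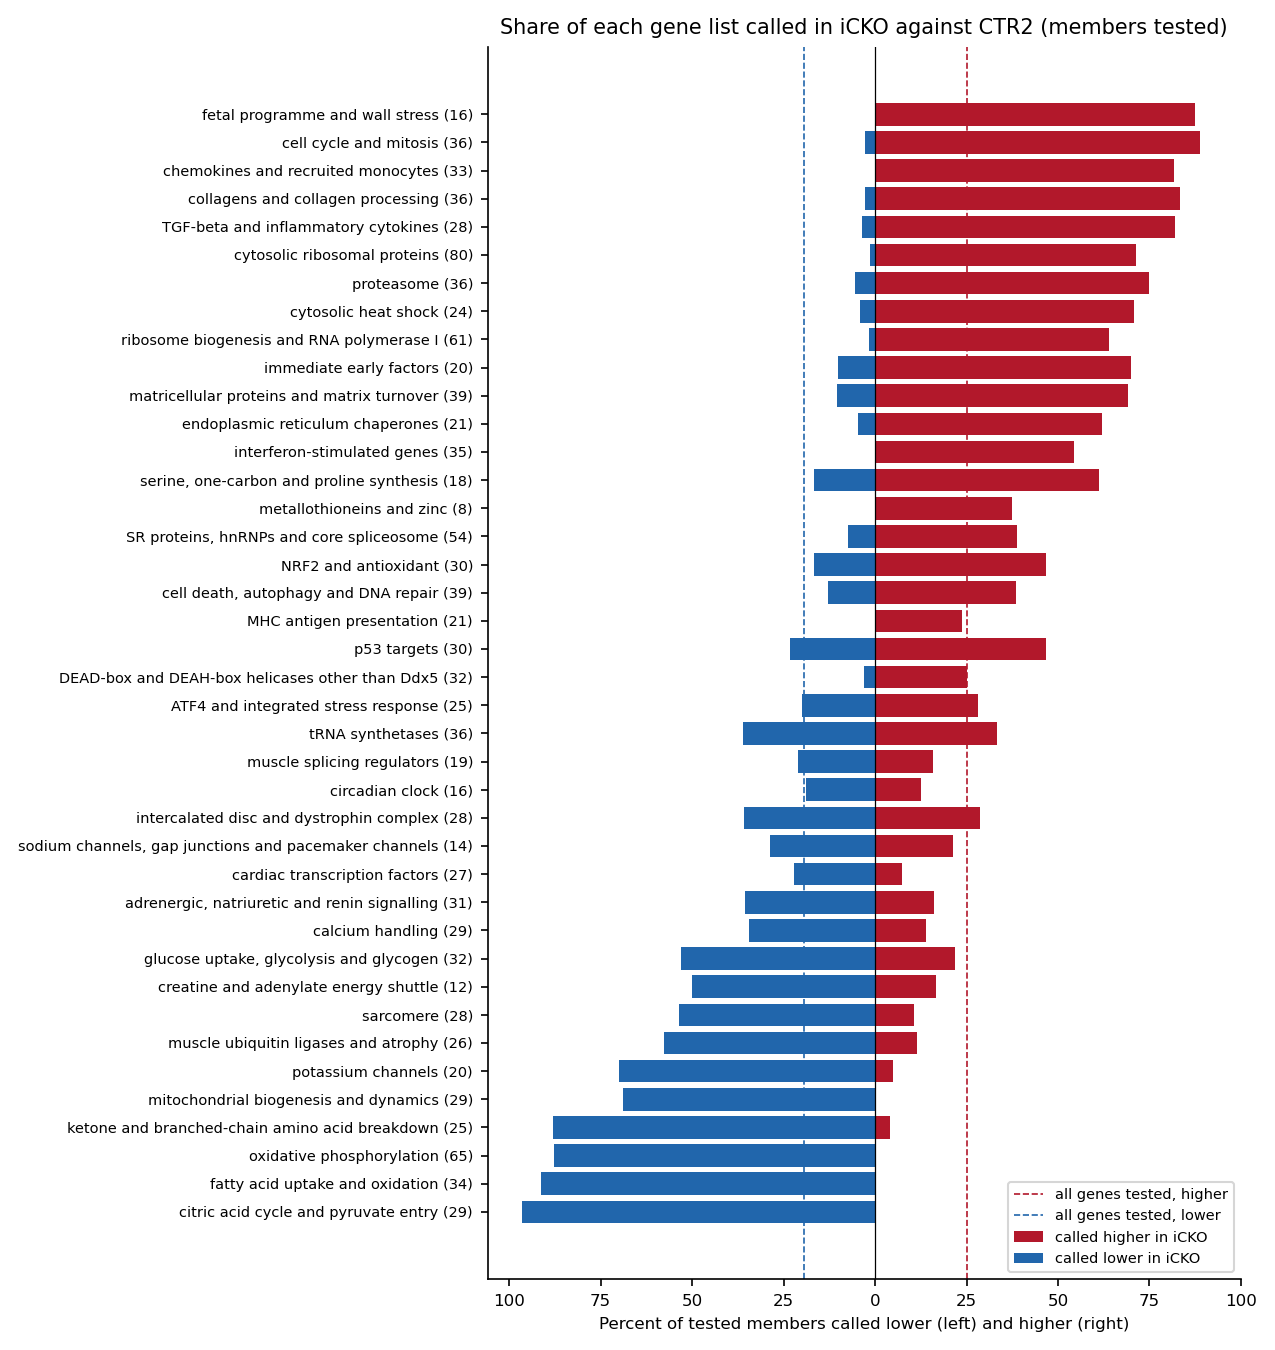
Percent of the tested members of each functional gene list called higher (right) and lower (left) in iCKO. The number tested is in brackets, and dashed lines mark the shares of all tested genes, 25.2 and 19.5%. Energy metabolism lists stand at the bottom, with few or no members higher, and fetal, cell cycle, chemokine and collagen lists at the top.

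Genes of the fetal programme and of wall stress rose together. Of 16 tested, 14 rose and 0 fell, with a median log2 fold change of 2.02. Nppa, which encodes atrial natriuretic peptide, was measured at 251, 121 and 333 CPM in CTR2 and 4124, 4000.2 and 8113 CPM in iCKO. Every iCKO library was more than 10-fold above every control (log2 fold change 4.53 ± 0.45, adjusted p = 2.0e-04), and 62% of the Nppa exon length is also covered by a gene on the opposite strand, whose reads may be included. Nppb, encoding brain natriuretic peptide, stood at 211, 75.1 and 129 CPM in CTR2 and 1621, 1960.2 and 4710.1 CPM in iCKO (log2 fold change 4.32 ± 0.53, adjusted p = 4.6e-04). Acta1, the skeletal α-actin that fetal hearts use, stood at 172, 88.6 and 292 CPM in CTR2 and 2204, 1739 and 1871 CPM in iCKO (log2 fold change 3.39 ± 0.4, adjusted p = 3.8e-04). Ankrd1, a stretch-responsive repeat protein of the sarcomere, was at 589.7, 145 and 1222 CPM in CTR2 and 6262, 5362 and 5681 CPM in iCKO, with CTR2 replicate 2 lowest for all 4 of these genes (log2 fold change 3.15 ± 0.63, adjusted p = 0.0045). Ankrd2, its relative in slow skeletal muscle, went from 0.216 ± 0.165 to 28.3 ± 20.6 CPM (SD, n = 3). Fhl1 and Csrp3, LIM proteins of the stretch-sensing machinery, rose by 2.11 ± 0.17 and 1.04 ± 0.2, and Synpo2l, an actin-bundling protein of the Z-disc, by 2.58 ± 0.38. The other 2 members, Actc1 (0.33 ± 0.21), cardiac α-actin, and Fhl2 (-0.55 ± 0.26), were not called, although Fhl2 was lower without CTR2 replicate 2 (-0.78, adjusted p = 0.022).

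Isoform pairs moved apart. Myh7, the slow β-myosin heavy chain, was measured at 437, 172 and 1206 CPM in CTR2 and 2584, 1724 and 2589 CPM in iCKO. It was called (log2 fold change 1.93 ± 0.59, adjusted p = 0.028), but not without iCKO replicate 3 (adjusted p = 0.098), without CTR2 replicate 1 (0.096) or in the fit of all 12 libraries (0.052). Per kilobase of exon, Myh7 stood at 0.763, 0.323 and 2.23% of the level of Myh6 in CTR2 and at 8.47, 7.60 and 17.4% in iCKO, a ratio that was higher in every iCKO library. Reads may be shared between these near-identical genes, and between the actins. Acta1 stood at 1.49, 1.34 and 2.86% of Actc1 in CTR2 and at 18.5, 15.2 and 15.4% in iCKO. Tnni1, the troponin I of fetal heart and slow muscle, rose (3.9 ± 0.39) while Tnni3, adult cardiac troponin I, fell (-1.63 ± 0.2), yet Tnni1 stayed at 0.158 to 0.211% of Tnni3 in iCKO.

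Adult sarcomere genes fell for 15 of 28 members and rose for 3 (median -0.71). The lower ones included Myh7b (-2.45 ± 0.61), a myosin gene that hosts a microRNA, Myom2 (-2.08 ± 0.17), an M-band protein, and Myoz2 (-1.69 ± 0.16), a Z-disc binder of calcineurin. Ttn, titin, fell (log2 fold change -1.09 ± 0.29, adjusted p = 0.015), a call lost without CTR2 replicate 1 (adjusted p = 0.055) and in the fit of all 12 libraries (0.089). The 3 that rose were Des, the intermediate filament desmin (1.66 ± 0.24), Cryab, a small heat shock protein of the Z-disc (1.84 ± 0.22, with 17% exon overlap), and Pdlim5, a PDZ-LIM adaptor (0.59 ± 0.19), whose call was lost when any library but iCKO replicate 1 was left out. The Z-disc cross-linker Actn2 (0.12 ± 0.14) and cardiac troponin T, Tnnt2 (-0.27 ± 0.2), were not called, and Tnnt2 was lower without iCKO replicate 3 (-0.56, adjusted p = 0.0032). Rising structural genes of adhesion included Vcl, vinculin (0.84 ± 0.17, 26% overlapped), Pkp2, a desmosomal plakophilin (1.01 ± 0.18), and Cav3, muscle caveolin (1.21 ± 0.3), whereas Dmd, dystrophin (-1.79 ± 0.22), Sgca, a sarcoglycan of its complex (-1.24 ± 0.16), and Ctnna3, a catenin of the intercalated disc (-2.18 ± 0.29), fell. In that list of 28 disc and dystrophin genes 8 rose and 10 fell.

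The M-CAT core on either strand was found in the promoters of 5 of 14 fetal-programme genes with a window in the reference (35.7%), against 14.6% of 10755 tested genes. Those 5, Nppb, Myh7, Acta1, Ankrd1 and Hspb7, all rose. It was as frequent among sarcomere genes (9 of 22, 40.9%), of which 0 rose and 4 fell. A match of letters is a description of the sequence, and no binding was measured.

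Skeletal muscle isoforms rose in the ventricle. Tnnt1, slow skeletal troponin T, was measured at 15.6, 14.5 and 12.2 CPM in CTR2 and 515, 545 and 716 CPM in iCKO, without overlap (log2 fold change 5.39 ± 0.22, adjusted p = 1.0e-05). Tnnt3 and Tnni2, fast troponins, rose by 5.88 ± 0.29 and 3.73 ± 0.39, Mybpc2, fast myosin-binding protein C, by 4.19 ± 0.2, and Ryr1, the skeletal calcium release channel, by 3.64 ± 0.4. Of 20 skeletal markers in the table only 11 passed the filter on low counts, some through their iCKO counts alone, so that the 8 that rose do not speak for the list. The 2 that fell were Ckm, muscle creatine kinase (-1.36 ± 0.15, 15% overlapped), and Atp2a1, the skeletal calcium pump (-1.49 ± 0.44, 22% overlapped), a call lost without iCKO replicate 1 (adjusted p = 0.068), CTR2 replicate 1 (0.074) or CTR2 replicate 3 (0.103). Atp2a1 was scarce, at 1.42, 0.753 and 1.73 CPM in CTR2 and 0.329, 0.634 and 0.41 CPM in iCKO. The defining fast myosins Myh1 and Myh4 were at or near 0 in all 6 libraries, and Mylpf, the fast regulatory light chain, was at 1.06, 0.33 and 0.918 CPM in CTR2 and 3.1, 2.82 and 1.94 CPM in iCKO. Skeletal tissue in the samples was not tested beyond these values.

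Calcium handling genes fell for 10 of 29 members and rose for 4 (2 higher without CTR2 replicate 3). Atp2a2, the SERCA2 pump that returns calcium to the sarcoplasmic reticulum, was measured at 25272, 26316 and 24291 CPM in CTR2 and 8967, 6914 and 4803 CPM in iCKO. The groups did not overlap, and iCKO replicate 3 was lowest (log2 fold change -1.88 ± 0.22, adjusted p = 4.1e-04). Ryr2, the channel that releases calcium from this store, fell by -2.19 ± 0.27, Cacna1c, the L-type channel that triggers release, by -2.1 ± 0.25, Hrc, a calcium-binding protein of the store, by -2.62 ± 0.2, and Trdn, triadin, by -1.35 ± 0.16. Pln, the inhibitor of the pump, also fell (-1.94 ± 0.14), with 65% of its exons overlapped on the opposite strand. Casq1, the skeletal calsequestrin, rose (2.19 ± 0.34), as did Fkbp1b, which stabilises Ryr2 (1.77 ± 0.46), and Camk2g, a calmodulin kinase subunit (0.99 ± 0.16). The call of Fkbp1b was lost without CTR2 replicate 3 (adjusted p = 0.061) and without CTR2 replicate 1 (0.052). Fkbp1b was scarce, at 0.455, 0.565 and 0.357 CPM in CTR2 and 0.876, 1.44 and 2.42 CPM in iCKO. Camk2d, whose splicing the study's title names, was measured at 190.3, 122 and 184 CPM in CTR2 and 162, 177 and 132 CPM in iCKO and was not called (-0.08 ± 0.21, adjusted p = 0.79). Splicing was not analysed here, and gene counts do not separate isoforms.

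Repolarising potassium channel genes fell more widely, for 14 of 20 members with 1 higher (median -1.31). Kcnip2, the subunit that sets the density of the transient outward current, was measured at 264, 236 and 266 CPM in CTR2 and 9.28, 5 and 3.28 CPM in iCKO. It fell to 2.29% of control (log2 fold change -5.45 ± 0.38, adjusted p = 6.1e-05). Kcnv2, a silent modifier subunit, was at 20.6, 9.42 and 13.8 CPM in CTR2 and 0.219, 0.106 and 0.0745 CPM in iCKO and fell (adjusted p = 6.1e-05). Its iCKO values lie near the level of 3 counts, 0.106 to 0.112 CPM in these libraries, so that no fold is given. Kcnd2 and Kcnd3, which form the pore of the transient outward channel, fell by -2.88 ± 0.34 and -1.74 ± 0.31, Kcnj3, an acetylcholine-gated rectifier, by -2.72 ± 0.38 (31% overlapped), and Kcnj11 and Abcc9, subunits of the ATP-sensitive channel, by -1.89 ± 0.2 and -2.04 ± 0.45. Kcna4, the pore of the slowly recovering transient outward current, was the 1 member that rose (1.1 ± 0.3). Scn4b, a sodium channel subunit, fell (-2.49 ± 0.29), while Gja1, the ventricular gap junction protein (0.34 ± 0.36), was not called. In the list of 14 sodium channel, gap junction and pacemaker genes 3 rose and 4 fell (median 0.44). The higher count was 5 with DESeq2, 6 without iCKO replicate 3 and 7 with library sizes only. Adra1a, an α-adrenergic receptor, fell (-3.18 ± 0.26).

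Muscle-restricted ubiquitin ligase adaptors were among the genes that fell most. Asb14, a SOCS-box repeat protein, was measured at 155, 155 and 146 CPM in CTR2 and 2.89, 2.18 and 0.894 CPM in iCKO (log2 fold change -6.25 ± 0.37, adjusted p = 4.2e-05), and Asb15 at 141, 115 and 135 CPM in CTR2 and 9.6, 6.69 and 1.23 CPM in iCKO (log2 fold change -4.48 ± 0.59, adjusted p = 6.4e-04). Armc2, an armadillo-repeat protein, was at 46.2, 72.4 and 48.1 CPM in CTR2 and 1.21, 0.846 and 0.559 CPM in iCKO (log2 fold change -5.99 ± 0.32, adjusted p = 2.5e-05). For all 3 genes the highest iCKO library was far below the lowest control. In the list of 26 muscle ligases and atrophy genes 15 fell and 3 rose, the latter led by Klhl40, a stabiliser of thin-filament proteins (2.65 ± 0.24, with 22% exon overlap). Foxo3, which drives atrophy genes, fell (-1.57 ± 0.28), and Trim63, the atrophy ligase MuRF1, was not called (-0.53 ± 0.24).

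**Figure D3:**
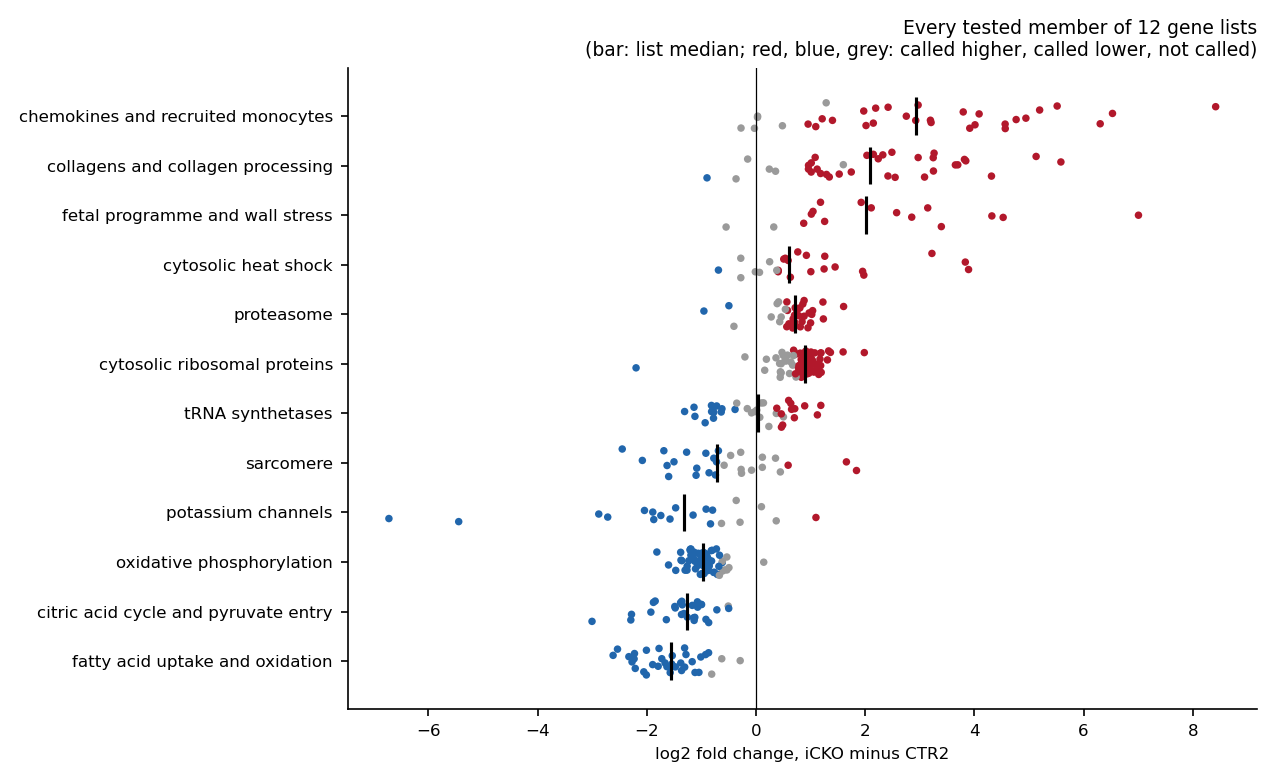
Log2 fold change, iCKO minus CTR2, of every tested member of 12 gene lists, spread vertically only for legibility, with a black bar at each list median and colours for the call. Citric acid cycle and fatty acid members lie left of 0, tRNA synthetases fall into higher and lower members, and the single blue point of the ribosomal protein list is Rpl3l.

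Oxidative metabolism fell at each step that was listed. Of 34 genes of fatty acid uptake and oxidation, 31 fell and 0 rose, with a median of -1.56. Hadhb, a subunit of the trifunctional enzyme of β-oxidation, was measured at 1639, 1526 and 1570.3 CPM in CTR2 and 419, 356 and 402 CPM in iCKO, a spread within each group much smaller than the gap (log2 fold change -2.01 ± 0.14, adjusted p = 6.9e-05). Cd36 and Slc27a1, which bring fatty acids into the cell, fell by -1.54 ± 0.15 and -2.33 ± 0.2, Lpl, the lipase that frees them from lipoproteins, by -2.27 ± 0.18, and Plin5, the lipid-droplet coat of oxidative tissue, by -2.62 ± 0.17. Acsl1, which activates them, fell by -2.06 ± 0.29, Cpt1b, which carries them into mitochondria, by -1.38 ± 0.19 (81% of its exons lie in a read-through gene model), and Acadm, a dehydrogenase of β-oxidation, by -2.23 ± 0.19. Among the 3 members not called were Cpt1a (-0.29 ± 0.26), the liver form of Cpt1b, and Pdk4 (-0.81 ± 0.42), which blocks pyruvate use. Pdk4 was lower without CTR2 replicate 1 (adjusted p = 0.039).

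Citric acid cycle and pyruvate entry genes fell for 28 of 29 (median -1.26) with 0 higher. Mdh1, the cytosolic malate dehydrogenase of the malate-aspartate shuttle, was at 3165, 2945 and 2786 CPM in CTR2 and 846, 791 and 836 CPM in iCKO, again in tight groups (log2 fold change -1.85 ± 0.14, adjusted p = 7.9e-05). Ogdhl, a 2-oxoglutarate dehydrogenase-like subunit, fell most (-3.0 ± 0.24), and Cs, citrate synthase, fell by -1.48 ± 0.17. Ketone and branched-chain amino acid breakdown genes fell for 22 of 25, such as Bdh1, which oxidises 3-hydroxybutyrate (-2.4 ± 0.19), Oxct1, the next enzyme of ketone use (-1.61 ± 0.18), and Ppm1k, the phosphatase that activates branched-chain breakdown (-2.08 ± 0.27). Bcat1, the cytosolic transaminase, was the 1 member that rose (2.6 ± 0.24).

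Nuclear genes of oxidative phosphorylation fell for 57 of 65 with 0 higher (median -0.98). By complex, a split made by name after the values were seen, 26 of 30 genes of complex I fell, 4 of 4 of complex II, 9 of 9 of complex III, 8 of 11 of complex IV and 9 of 10 of ATP synthase. Ndufs7, a complex I subunit, fell by -1.6 ± 0.16, Sdha of complex II by -1.36 ± 0.15, and Cox7a1, the heart and muscle isoform of a complex IV subunit, by -1.82 ± 0.28. Cox8b, another muscle isoform, fell by -1.38 ± 0.27. Of 29 regulators of mitochondrial number and shape 20 fell and 0 rose. They included Ppargc1a, the PGC-1α coactivator (-2.13 ± 0.45), Perm1, its muscle partner (-2.78 ± 0.27), Esrra and Esrrg, oestrogen-related receptors (-1.22 ± 0.14 and -1.5 ± 0.3), Ppara, which drives fatty acid genes (-1.84 ± 0.27), and Opa1, which fuses inner membranes (-1.35 ± 0.22).

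Glucose genes were mixed, with 17 of 32 lower and 7 higher (4 without CTR2 replicate 3). Slc2a4, the insulin-responsive transporter GLUT4, fell (-2.27 ± 0.23) and Slc2a1, the constitutive GLUT1, rose (1.0 ± 0.25), the latter call being lost without CTR2 replicate 3 (adjusted p = 0.054). Pfkm, the muscle phosphofructokinase, fell (-2.05 ± 0.19) and Pfkp, the platelet form, rose (0.93 ± 0.15). Eno1, the ubiquitous enolase, rose (1.67 ± 0.18). In the creatine shuttle Ckmt2, the mitochondrial creatine kinase of muscle, fell (-2.03 ± 0.15) and Ckb, the brain form, rose (1.01 ± 0.21). Hkdc1, a hexokinase-like gene, had 0 counts in all 3 controls and 43, 179 and 175 counts in iCKO, at least 32.3-fold higher when set against 3 counts per control library. The lower metabolic lists moved in the same libraries as the ventricular cardiomyocyte markers, of which 13 of 18 fell (median -1.02), and the part of cell number in these values was not tested.

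Stress pathways did not rise as whole lists to the same degree. Targets of p53 rose for 14 of 30 and fell for 7 (median 0.54). Phlda3, a p53-induced inhibitor of Akt, was measured at 8.3, 7.16 and 7.96 CPM in CTR2 and 38.1, 50.5 and 61.3 CPM in iCKO, without overlap (log2 fold change 2.68 ± 0.21, adjusted p = 8.4e-05). Eda2r, a TNF-family receptor, rose by 2.18 ± 0.21, Btg2, an antiproliferative factor, by 2.5 ± 0.24, and the death effectors Bax and Bbc3 by 1.78 ± 0.22 and 2.07 ± 0.34. Trp53 itself rose (0.87 ± 0.16). Cdkn1a, the p21 cell cycle inhibitor (0.67 ± 0.41), and Mdm2, the ligase that degrades p53 (0.29 ± 0.15), were not called, although Cdkn1a was higher without CTR2 replicate 2 (1.23, adjusted p = 0.030) and Mdm2 without iCKO replicate 3 (0.33, adjusted p = 0.038). Sesn1 (-2.18 ± 0.29) and Ccng1 (-1.33 ± 0.18) fell.

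Of 25 genes of ATF4 and the integrated stress response 7 rose and 5 fell, close to the shares of all genes (11 higher without CTR2 replicate 2). Within it Gdf15, a stress-induced cytokine, stood at 1.16, 0.612 and 0.918 CPM in CTR2 and 7.16, 13.1 and 14.1 CPM in iCKO (log2 fold change 3.67 ± 0.36, adjusted p = 1.7e-04), and Asns, asparagine synthetase, rose by 2.45 ± 0.28. Slc7a5, an amino acid transporter, rose by 2.18 ± 0.24, while Vldlr, a lipoprotein receptor, fell by -2.63 ± 0.24 and Herpud1, of protein disposal, by -2.57 ± 0.45. Serine, one-carbon and proline synthesis rose for 11 of 18 and fell for 3. Psat1, the serine synthesis transaminase, stood at 3.95, 3.44 and 4.49 CPM in CTR2 and 17.7, 21 and 28.1 CPM in iCKO, each iCKO library above each control (log2 fold change 2.49 ± 0.23, adjusted p = 1.3e-04). Mthfd2, the mitochondrial folate enzyme of proliferating cells, rose by 2.86 ± 0.32, and Pycr1, of proline synthesis, by 2.79 ± 0.35. In contrast Shmt2, which feeds serine into mitochondrial one-carbon units, fell (-0.73 ± 0.13). The response element TGATGNAA stood in 8 of 23 ATF4-list promoters (34.8%) and in 2.75% of tested genes, and 2 of those 8 rose while 2 fell. It also stood in 2 of 14 promoters of the serine, one-carbon and proline list (14.3%), of which 2 rose. Among tRNA synthetases it stood in 5 of 26 promoters (19.2%), of which 3 rose and 0 fell.

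The tRNA synthetases, which charge tRNAs with amino acids, rose for 12 and fell for 13 of 36 (7 and 6 higher without CTR2 replicate 1 or 3). Divided by name after the values were seen, 10 of 19 cytosolic or shared enzymes rose and 0 fell (median 0.47), whereas 13 of 17 mitochondrial enzymes fell and 2 rose (median -0.77). Examples are Rars, the cytosolic arginine enzyme (1.19 ± 0.17), and the mitochondrial Wars2 and Fars2 (-1.14 ± 0.21 and -1.31 ± 0.13). The 2 mitochondrial ones that rose were Ears2 (1.12 ± 0.24) and Rars2 (0.46 ± 0.14), the latter lost when any library but iCKO replicate 3 was left out.

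Cytosolic heat shock genes rose for 17 of 24 and fell for 1. Hspb1, the small heat shock protein Hsp27, was measured at 153, 189 and 154 CPM in CTR2 and 2044, 1917 and 3415 CPM in iCKO, with the highest value in replicate 3 (log2 fold change 3.89 ± 0.27, adjusted p = 6.1e-05). Hsp90aa1, the inducible Hsp90, rose by 1.95 ± 0.15, and Cct3, a subunit of the chaperonin that folds actin, by 1.45 ± 0.19. Hsf1, the factor that drives these genes, was the 1 member of the list that fell (-0.69 ± 0.14). Endoplasmic reticulum chaperones rose for 13 of 21, such as Sdf2l1 (1.82 ± 0.29) and Pdia4 (1.33 ± 0.26), a disulphide isomerase. Proteasome genes rose for 27 of 36 and fell for 2 (12 without CTR2 replicate 1 and 11 without CTR2 replicate 3), by modest amounts, as in Psma5, a core subunit (1.6 ± 0.2), and Psmd14, the deubiquitinase of its lid (1.23 ± 0.18). Antioxidant genes rose for 14 of 30 and fell for 5 (9 and 8 higher without CTR2 replicate 1 or 3). Gsr, glutathione reductase (1.3 ± 0.15), Taldo1, of the pentose phosphate pathway (1.69 ± 0.31), and Txn1, cytosolic thioredoxin (1.48 ± 0.26), rose, but Sod2 (-1.42 ± 0.15) and Prdx3 (-0.88 ± 0.15), which detoxify oxidants in mitochondria, fell, and the classic NRF2 target Nqo1 was not called (0.22 ± 0.18).

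The machinery that makes ribosomes rose. Of 61 genes of ribosome biogenesis and RNA polymerase I, 39 rose and 1 fell. Rrp12, an export factor of ribosomal subunits, rose by 2.08 ± 0.16, and Nop58 and Fbl, of the complex that methylates ribosomal RNA, by 1.57 ± 0.17 and 1.36 ± 0.18. Myc, which drives this programme and is counted in the list, rose by 2.38 ± 0.34. Many ribosomal protein genes have near-identical pseudogenes that can share reads. They rose for 57 of 80 with 1 lower, but this count fell to 19, 24 and 14 when CTR2 replicate 1, 2 or 3 was left out. The list stood at 0.44, 0.53 and 1.46 (median log2 deviation from the CTR2 mean) in iCKO replicates 1, 2 and 3, so that replicate 3 was highest. The 1 lower member was Rpl3l, the paralog that replaces Rpl3 in striated muscle. Rpl3l was measured at 268, 309 and 236 CPM in CTR2 and 58.1, 49.1 and 70.0 CPM in iCKO (log2 fold change -2.2 ± 0.19, adjusted p = 1.1e-04), and Rpl3 at 184, 162 and 177 CPM in CTR2 and 564, 595 and 910.1 CPM in iCKO (log2 fold change 1.98 ± 0.21, adjusted p = 2.6e-04). Per kilobase of exon, Rpl3l stood at 282, 368 and 257% of Rpl3 in CTR2 and at 19.9, 16.0 and 14.9% in iCKO, so that the more abundant of these paralogs was Rpl3l in every control and Rpl3 in every iCKO library.

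RNA processing genes other than Ddx5 differed by list in direction. Among 54 SR proteins, hnRNPs and core spliceosome genes 21 rose (38.9%) and 4 fell (7.41%), against 25.2 and 19.5% of all genes. Without CTR2 replicate 1 or 3 the higher count was 12 or 10. U2af1, which marks the 3′ splice site, rose by 1.16 ± 0.2, and Hnrnpa1, an exon-skipping factor, by 0.83 ± 0.16. Muscle splicing regulators had 3 higher (15.8%) and 4 lower (21.1%) of 19, the lower share being near that of all genes. The higher count was 7 without iCKO replicate 3 and CTR2 replicate 2 together. Rbfox1, which directs muscle exon choice, was at 65.7, 72.3 and 57.3 CPM in CTR2 and 7.63, 6.34 and 3.43 CPM in iCKO and fell in all iCKO libraries (log2 fold change -3.49 ± 0.29, adjusted p = 9.7e-05). Rbm20, the splicing factor of titin, was not called (-0.58 ± 0.21), but was lower with 7 of the other settings, among them DESeq2 (-0.62, adjusted p = 0.014). Of 32 other DEAD-box and DEAH-box helicases 8 rose (5 to 14 by setting) and 1 fell. The higher share (25%) was near that of all genes, and the lower share (3.12%) was below it. These helicases include Eif4a1, a translation initiation helicase, which rose (1.42 ± 0.23) as its paralog Eif4a2 fell (-0.94 ± 0.18). Dhx58, an RNA sensor of the interferon system, also rose (2.02 ± 0.27).

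Matrix genes showed some of the largest changes. Collagens and their processing enzymes rose for 30 of 36 with 1 lower (median 2.09). Col1a1, the main fibrillar collagen, was measured at 87.1, 53.2 and 61.6 CPM in CTR2 and 703, 1276 and 867 CPM in iCKO (log2 fold change 3.82 ± 0.29, adjusted p = 8.4e-05), and Col3a1 rose by 4.31 ± 0.47. Lox, which cross-links collagen, rose by 3.7 ± 0.42. Matricellular and turnover genes rose for 27 of 39 and fell for 4 (8 lower without iCKO replicate 3 and CTR2 replicate 2). Postn, periostin, which activated fibroblasts secrete, was measured at 21.6, 12.8 and 18.1 CPM in CTR2 and 699, 1184 and 975 CPM in iCKO, every control far below every iCKO library (log2 fold change 5.77 ± 0.3, adjusted p = 2.3e-05). Tnc, tenascin C, was at 1.72, 1.88 and 2.19 CPM in CTR2 and 373, 468 and 273 CPM in iCKO (log2 fold change 7.58 ± 0.29, adjusted p = 1.0e-05), and Timp1, an inhibitor of matrix proteases, at 2.53, 2.54 and 2.81 CPM in CTR2 and 211, 299.8 and 392 CPM in iCKO (log2 fold change 6.84 ± 0.29, adjusted p = 1.0e-05). These 3 genes were low in every control and abundant in every iCKO library. Lower members included Dcn, decorin (-0.63 ± 0.14), and Mmp2 (-0.72 ± 0.15), both made by resting fibroblasts.

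Fibroblast identity markers in the same libraries did not rise as a list, with 5 of 18 higher, 6 lower and a median of 0.12 (2 or 3 higher when any library but iCKO replicate 3 was left out). Meox1, a factor of activated fibroblasts, rose by 3.72 ± 0.22, and Tcf21, of resting ones, was not called (0.21 ± 0.22). Scara5 fell (-3.07 ± 0.28). Among contractile genes of smooth muscle and myofibroblasts Cnn1 (3.34 ± 0.3) and Acta2 (1.92 ± 0.42) rose, the latter not without iCKO replicate 3 and CTR2 replicate 2 (adjusted p = 0.077), but Smtn, smoothelin, fell (-1.14 ± 0.24). The part of fibroblast number in the matrix values was not tested beyond these markers.

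Signals of injury and immune recruitment rose. TGF-β and inflammatory cytokine genes rose for 23 of 28 with 1 lower. Tgfb2 was at 7.44, 6.54 and 9.13 CPM in CTR2 and 102, 87.9 and 109 CPM in iCKO (log2 fold change 3.69 ± 0.19, adjusted p = 2.0e-05), and Inhba, the activin A subunit, rose by 4.01 ± 0.32. Lif, a cytokine of the interleukin-6 family, rose by 5.4 ± 0.42 and Socs3, the feedback inhibitor of that family, by 3.34 ± 0.34. Chemokines and genes of recruited monocytes rose for 27 of 33 with 0 lower (median 2.93). Ccl2, the ligand that draws monocytes from blood, was measured at 2.28, 1.32 and 1.63 CPM in CTR2 and 57.9, 79.2 and 54.4 CPM in iCKO (log2 fold change 5.19 ± 0.26, adjusted p = 2.0e-05). Its receptor Ccr2 was at 2.78, 2.26 and 1.89 CPM in CTR2 and 34.1, 43.8 and 40.1 CPM in iCKO (log2 fold change 4.09 ± 0.21, adjusted p = 2.0e-05). Ly6c2, a marker of blood monocytes, also rose, from 0.0506, 0.141 and 0.306 CPM in CTR2 to 15.1, 5.53 and 2.72 CPM in iCKO. Its CTR2 values lie near the level of 3 counts, 0.141 to 0.153 CPM in these libraries, so that no fold is given. Lgals3, galectin 3 of activated macrophages, rose by 4.01 ± 0.45.

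Macrophage markers rose for 16 of 20 (median 1.58), from 547 to 703 CPM summed in CTR2 to 1368 to 2598 CPM in iCKO. Csf1r, the growth factor receptor that defines macrophages, rose by 1.43 ± 0.16 (15% overlapped). Timd4, a marker of long-resident macrophages, was not called (-0.45 ± 0.46). Of 12 neutrophil and mast cell markers 10 passed the filter, and 5 rose with 0 lower (3 higher with limma-voom or without iCKO replicate 3, CTR2 replicate 1 or CTR2 replicate 3). Csf3r, a neutrophil growth factor receptor, rose by 3.13 ± 0.24. Cxcr2, a chemokine receptor, also rose, from 0.405, 0.188 and 0.153 CPM in CTR2 to 4.05, 5.85 and 9.8 CPM in iCKO. Its CTR2 values lie near the level of 3 counts, so that no fold is given. The T cell gene Cd3e had 0 counts in all 3 controls and stood at 0.0365, 0.211 and 0.596 CPM in iCKO, and did not pass the filter. Only 2 of 15 lymphocyte markers passed it, too few to describe the list. Endothelial markers fell for 12 of 22 and rose for 0 (6 or 7 lower without CTR2 replicate 1, 2 or 3, without iCKO replicate 1 or with library sizes only). Flt1, a VEGF receptor of endothelium (-0.93 ± 0.19), and Car4, a capillary carbonic anhydrase (-1.89 ± 0.27), fell, and Pecam1 was not called (-0.41 ± 0.19).

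Interferon-stimulated genes rose for 19 of 35 with 0 lower, a count of 12 without iCKO replicate 2 or without CTR2 replicate 2. Isg15, a ubiquitin-like protein induced by interferon, was measured at 4.4, 2.31 and 2.3 CPM in CTR2 and 17.1, 13.5 and 9.91 CPM in iCKO (log2 fold change 2.17 ± 0.32, adjusted p = 0.001). Within iCKO the list medians were 1.25, 0.87 and 0.36 in replicates 1, 2 and 3, with replicate 3 nearest to control. The interferon response core stood in 14 of 26 of these promoters (53.8%, 9 of them higher) and in 3.81% of tested genes. Antigen presentation genes rose for 5 of 21, near the share of all genes, and B2m was not called (0.07 ± 0.14).

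Cell cycle genes rose for 32 of 36 with 1 lower (median 1.93). Mcm6, a subunit of the replicative helicase, was measured at 8.86, 11 and 8.98 CPM in CTR2 and 31.7, 35.6 and 38.3 CPM in iCKO (log2 fold change 1.87 ± 0.16, adjusted p = 1.1e-04), each iCKO library above 3-fold of the CTR2 mean. Top2a, a topoisomerase of dividing cells, rose by 2.93 ± 0.37, and Prc1, which organises the dividing spindle, by 3.44 ± 0.53. Ccnd2 was not called (-0.29 ± 0.31). Bulk counts do not say in which cells these genes rose, and macrophage markers moved with them. The E2F site (TTTGGCGC or else TTTCCCGC, on either strand) stood in 5 of 28 promoters (17.9%) and in 3.34% of tested genes, and 4 of those 5 rose.

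Of 39 genes of cell death, autophagy and DNA repair 15 rose (9 without CTR2 replicate 3) and 5 fell. Ripk3 (2.18 ± 0.29) and Mlkl (1.73 ± 0.22), which carry out necroptosis, rose. Map1lc3b, of the autophagosome, fell (-1.02 ± 0.2). Immediate early factors rose for 14 of 20, among them Fosb (3.42 ± 0.36), Egr2 (4.49 ± 0.59) and Junb (2.34 ± 0.26), which are also induced by handling of tissue, a part not tested here. Cardiac transcription factors rose for 2 and fell for 6 of 27. Gata4 rose (0.69 ± 0.14), Klf15, a regulator of cardiac metabolism, fell (-1.95 ± 0.23), and Nkx2-5 (0.19 ± 0.17) and the M-CAT reader Tead1 (-0.33 ± 0.22) were not called.

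The 3 iCKO libraries differed in degree. Replicate 3 was lowest for potassium channels (median deviations of -1.05, -1.37 and -1.84) and highest for proteasome genes (0.44, 0.61 and 1.02) in the order of replicates 1, 2 and 3. For oxidative phosphorylation it was the nearest to control (-1.01, -1.24 and -0.67), whereas fatty acid oxidation spread less (-1.47, -1.72 and -1.64). Among controls replicate 2 stood apart, with fetal-programme genes at 0.14, -0.52 and 0.18 and collagens at 0.31, -0.4 and 0.1 in replicates 1, 2 and 3. Erythroid and platelet markers summed to 425, 1181 and 266 CPM in CTR2 and to 85.1, 90.2 and 331 CPM in iCKO, so that CTR2 replicate 2 held the most blood transcripts. Without iCKO replicate 3 and CTR2 replicate 2 together, 7938 genes were called, and they held 95.9% of the 6068 calls made with all libraries.

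**Figure D4:**
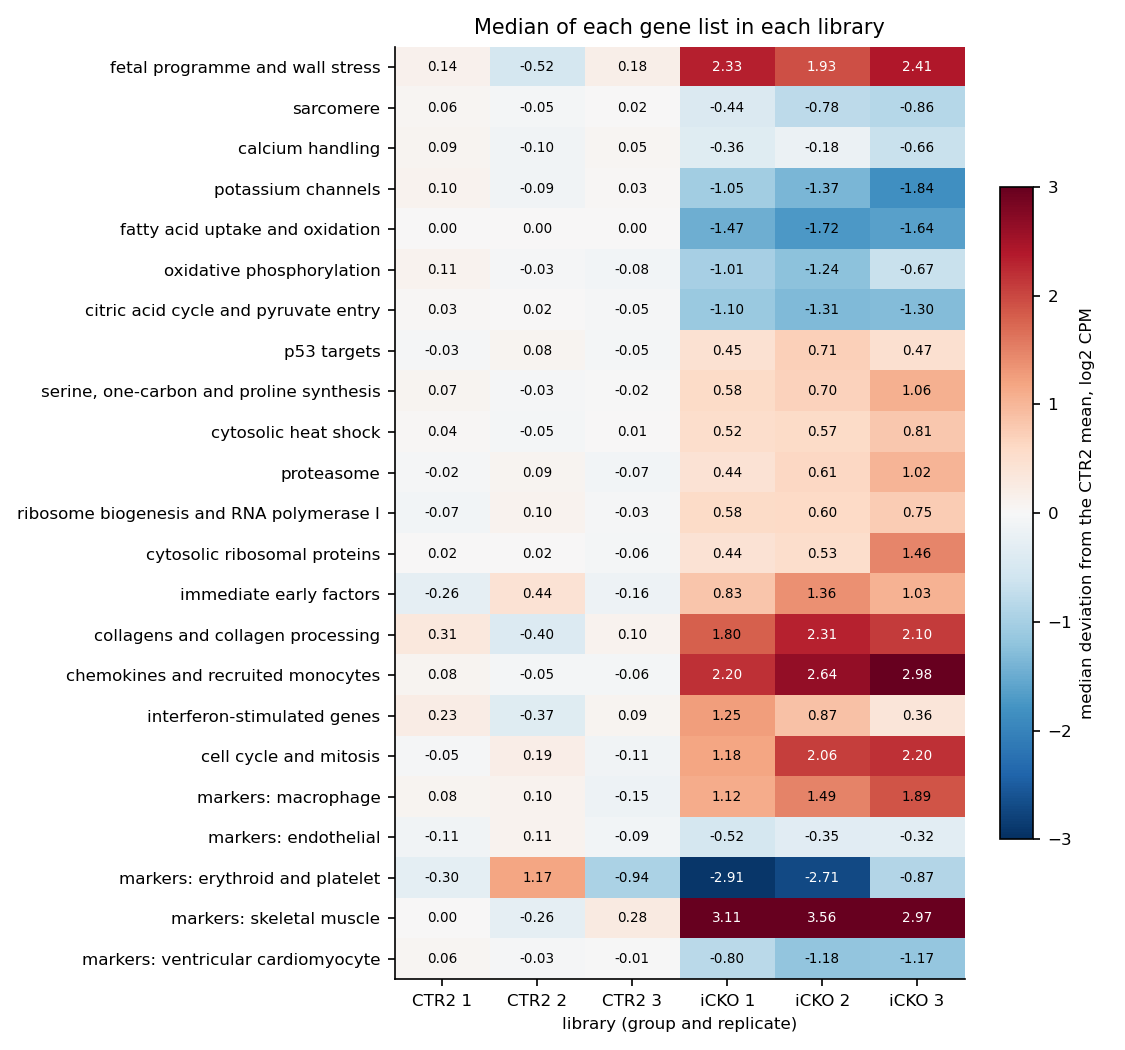
Median deviation of each gene list from the CTR2 mean in each library, in log2 CPM. Red is above and blue below the control mean. The 3 iCKO columns share their sign in every list shown, and iCKO replicate 3 stands out for ribosomal proteins and CTR2 replicate 2 for erythroid markers. Only some lists are drawn, and others differed in sign within iCKO, such as muscle splicing regulators (0.31, 0.11 and -0.21) and fibroblast markers (0.10, 0.27 and -0.11).

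The inducible effect was also set against the constitutive one, the mCKO libraries against their CTR1 controls, in a fit of all 12 libraries. Tamoxifen, the form of Cre and the time since deletion differ between the models, and age may differ too, as none is given for iCKO and CTR2. These cannot be told apart as sources of a difference. Of 13871 genes tested, the iCKO effect was higher for 1371 (9.88%) and lower for 1521 (11%). In the same fit the effect within each model was called for 6474 genes in iCKO and for 24 in mCKO. The difference for Ddx5 itself was not called (-0.32 ± 0.25, adjusted p = 0.39), with effects of -1.61 ± 0.18 in iCKO and -1.3 ± 0.18 in mCKO.

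Tnnt1 was measured at 12.4, 15.8 and 14.7 CPM in CTR1 and 28.2, 17.2 and 20.7 CPM in mCKO, against the values above for the inducible model. Its effect was 5.36 ± 0.24 in iCKO and 0.62 ± 0.21 in mCKO, a difference of 4.73 ± 0.3 (adjusted p = 8.4e-06). Postn differed by 5.18 ± 0.46, Hspb1 by 3.7 ± 0.32, Tgfb2 by 3.46 ± 0.25, Nes, the intermediate filament nestin, by 2.95 ± 0.23, and Rtn4, a reticulum-shaping protein, by 3.08 ± 0.2 (18% overlapped). Kcnip2 stood at 238, 216 and 183 CPM in CTR1 and 235, 194 and 152 CPM in mCKO, with no group apart, and its effect differed by -5.37 ± 0.42 (adjusted p = 3.1e-05). Armc2 (-5.73 ± 0.35), Asb14 (-5.41 ± 0.39) and Cacna1s, the skeletal L-type channel (-3.44 ± 0.28, with 20% exon overlap), were likewise lower in the inducible model. Fatty acid genes were lower there for 31 of 34, citric acid cycle genes for 26 of 29 and oxidative phosphorylation for 35 of 65, with 0 higher in each. Hadhb changed by -2.05 ± 0.12 in iCKO and -0.3 ± 0.12 in mCKO (difference -1.75 ± 0.17, adjusted p = 8.3e-05). Col1a1 changed by 3.78 ± 0.37 in iCKO and 0.43 ± 0.34 in mCKO (3.35 ± 0.49, adjusted p = 8.4e-04), and Rpl3l by -2.24 ± 0.18 and -0.77 ± 0.18 (-1.46 ± 0.25, adjusted p = 0.0023). Fetal-programme genes were higher in the inducible model for 12 of 16 and collagens for 22 of 37.

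Other differences missed the threshold. Phlda3 changed by 2.64 ± 0.25 in iCKO and 1.9 ± 0.24 in mCKO (difference 0.74 ± 0.34, adjusted p = 0.14), and Eda2r by 2.13 ± 0.18 and 1.85 ± 0.18 (0.28 ± 0.25, adjusted p = 0.46). Other p53 targets did differ, with Btg2 changed by 2.46 ± 0.21 in iCKO and 0.21 ± 0.2 in mCKO (difference 2.25 ± 0.29, adjusted p = 3.8e-04) and Bax by 1.74 ± 0.24 and 0.43 ± 0.23 (1.32 ± 0.33, adjusted p = 0.015). Among interferon-stimulated genes 1 of 35 differed, with list medians of 0.75 in iCKO and 0.59 in mCKO. Among 80 ribosomal proteins 1 was higher and 1 lower by the test of the difference, although the list median was 0.86 in iCKO and 0.08 in mCKO. A difference that misses the threshold does not show that the models respond alike.

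**Figure D5:**
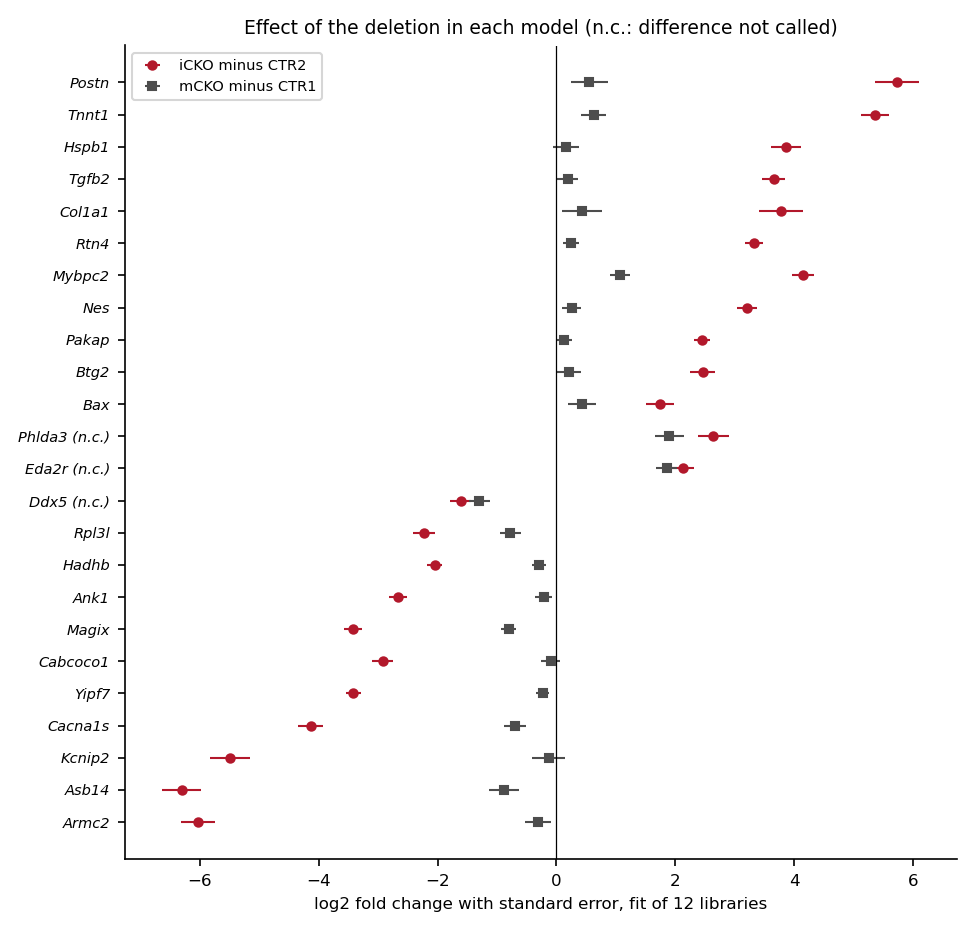
Log2 fold change with its standard error in the inducible (red circles) and constitutive (grey squares) model for the genes compared in the text, ordered by the difference, with n.c. where that difference was not called. Postn and Tnnt1 lead the genes higher in the inducible model, and Armc2, Asb14 and Kcnip2 the lower ones.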

How the data were processed

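Left-ventricle RNA of 3 iCKO and 3 CTR2 libraries was compared, and the 3 mCKO and 3 CTR1 libraries entered only the comparison of models. Trizol extraction and a TruSeq stranded mRNA kit were used, per the labels' protocols. Per the submitters' processing notes, HISAT2 and DESeq were used with the build GRCm38. For their versions, the annotation, the counting tool and its use of strand, nothing is stated in the sources used here. Values are whole-number gene counts, deposited by the authors in 1 table per model, with 17325 genes in the iCKO table and 16673 genes shared by both tables.

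CPM and log2 fold changes were computed here from the deposited counts in R 4.3.3 with edgeR 4.0.16. TMM scaling, filterByExpr (minimum count 10, minimum total 15) and robust quasi-likelihood fits without covariates were used, with two-sided tests and Benjamini-Hochberg adjustment at 0.05. A standard error is the log2 fold change over the square root of its F statistic. Library totals of 20879447 to 25871882 put the limit that a count of 0 allows, 3 counts, at 0.106 to 0.153 CPM, for counting error only. No pair of replicates agreed within sampling noise (chi-square per degree of freedom of at least 10.96). The difference between models is the contrast of both effects in 1 fit of 12 libraries. Alternatives were other scalings, no filter, DESeq2 1.42.0, limma-voom (limma 3.58.1), the replicate number as a block and leaving out libraries. The fits were tested on simulated data.

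The members and the 53 gene lists were chosen with earlier results of these data known. A fixed rule gave 257 genes to name: Ddx5, Ddx17 and Camk2d, the 15 highest and 15 lowest log2 fold changes and the 15 most abundant called genes in each direction, up to 4 members per list by adjusted p, and the 8 clearest differences between models in each direction. Of the 210 genes named, 116 follow it and the other 94 are list members chosen after their values were seen. Coordinates and promoters come from RefSeq (GRCm38.p6), with 250 bases before and 50 after each start searched for motifs, and exon lengths and overlaps from GENCODE M21. A gene with several windows counts as matched when any holds the motif.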

Additional observations from a re-analysis of the deposited data

Results flagged for a closer look

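For 16 genes the effect of the deletion differed between the inducible and the constitutive model, by the test of the difference in the fit of all 12 libraries. Age, tamoxifen, the form of Cre and the time since deletion cannot be told apart as sources. Differences are given as the log2 effect in iCKO minus that in mCKO. The inducible model was higher for Postn (5.18), periostin of activated fibroblasts, Tnnt1 (4.73), slow skeletal troponin T, Hspb1 (3.70), a small heat shock protein, and Tgfb2 (3.46), a growth factor of scarring. It was also higher for Rtn4 (3.08), Mybpc2 (3.08), fast myosin-binding protein C, Nes (2.95), nestin, and Pakap (2.31), whose exons overlap the genes Palm2 and Akap2 over 98% of their length. The inducible model was lower for Armc2 (-5.73), Asb14 (-5.41), a muscle ubiquitin ligase adaptor, Kcnip2 (-5.37), a potassium channel subunit, and Cacna1s (-3.44), a skeletal calcium channel. It was also lower for Yipf7 (-3.19), a Golgi membrane protein, Cabcoco1 (-2.83), Magix (-2.61) and Ank1 (-2.45), which encodes an ankyrin that anchors the muscle reticulum. All 16 kept their call and direction with each library left out in turn and under each of the 6 other fits. As they were picked by the smallest adjusted p in these same data, this gives no separate support.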

How the results depend on the processing

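The Ddx5 call held under every alternative run (log2 fold change -1.35 to -1.64). Leaving out 1 library gave 2425 to 3495 higher and 1877 to 3275 lower genes in iCKO, fewest without CTR2 replicate 3, and 69.4 to 93.4% of the 6068 calls were made again, all in the same direction. Both counts were highest without iCKO replicate 3. Other fits gave 3055 to 4592 higher and 1832 to 3151 lower genes. The difference between models gave 2145 higher genes with library sizes only, and 910 to 1615 with 1 library left out (910 without mCKO replicate 1), against 1371. The cause was not tested. Camk2d, which was not called under any setting, changed sign with library sizes only (0.14), without CTR2 replicate 1 (0.030) and without CTR2 replicate 3 (0.0047), in a range of -0.26 to 0.030 with 1 library left out.

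Same-numbered iCKO and CTR2 libraries did not deviate together (correlations across genes of 0.06, -0.09 and -0.16), so the replicate number was not taken as a pairing. With the replicate block 3055 genes were higher and 2436 lower, 87.9% of the calls were shared, and differences between models numbered 1846 and 2055. Leaving out iCKO replicate 3 and CTR2 replicate 2 together, and leaving out single mCKO or CTR1 libraries, were chosen after seeing the data. Of the genes named, Pecam1 (-0.29, adjusted p = 0.032) and Trim63 (-0.38, 0.015) were called only when those 2 libraries were left out. Depth limits genes near 0.153 CPM, whose fitted folds depend on the prior count. Counting at the level of genes hides isoforms.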
